A study of Mus musculus with 20 samples.

Results

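The caudal-type homeobox genes Cdx1, Cdx2 and Cdx4 were followed in bulk RNA sequencing of embryo-like structures grown from mouse embryonic stem cells. They were taken by gene symbol from the deposited expression tables, and all 3 were found in every library, as 3 of 54446 gene IDs listed and 3 of the 14290 genes tested. The 15 libraries formed 5 groups of 3 biological replicates each. All groups came from the F1G4 embryonic stem cell line with a double reporter (T::H2B-mCherry/Sox2::H2B-Venus), in which Brachyury and Sox2 activity drive nuclear red and yellow fluorescence. All aggregates had received a pulse of 3 µM CHIR99021, an inhibitor of the kinase GSK3 that activates WNT signalling, after 48 h of aggregation. The 96h group held precursors of trunk-like structures collected at 96 h, 10 structures pooled per library. The other groups were collected at 120 h, 6 structures pooled per library: Gastruloid (by the Beccari protocol), TLSMG (in Matrigel, a basement membrane gel), TLSMGC (in Matrigel with CHIR) and TLSMGCL (in Matrigel with CHIR and LDN, a name used for inhibitors of BMP receptors). Structures were picked for having 1 asymmetric pole, so the values describe picked structures from 1 cell line, and the doses of the later additions are not given in the sources used here.

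CDX proteins are transcription factors of the posterior embryo. WNT, FGF and retinoic acid signals feed into Cdx transcription, and CDX proteins in turn bind regulatory elements of Hox genes, above all those of the trunk, and of genes that keep the tailbud growing. Cdx1 is known as a direct target of WNT and retinoic acid signalling, Cdx2 also directs the trophectoderm and later the intestine, and Cdx4 is the X-linked member. The members overlap in function in axis elongation.

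The sequence just upstream of the start site is shown for Cdx2 and Cdx4. It is where letters read by WNT, retinoid and CDX factors were looked for. The promoter sequences used here held none for Cdx1, so Cdx1 was not searched. Both stretches come from RefSeq (GRCm38.p6), are printed 5′ to 3′ on the gene's strand and end at the base before the gene start given below. For Cdx2 that start lies upstream of the RefSeq start, so its stretch was cut from 250 to 229 bases. The octamer ATGCAAAT, the letters known to be read by POU factors, is in capitals.
Cdx2, chr5:147307271-147307499, minus strand: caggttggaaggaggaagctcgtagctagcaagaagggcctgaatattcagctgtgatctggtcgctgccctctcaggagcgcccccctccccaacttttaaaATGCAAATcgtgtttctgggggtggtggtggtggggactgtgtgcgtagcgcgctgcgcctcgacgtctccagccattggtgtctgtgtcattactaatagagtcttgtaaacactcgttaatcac
Cdx4, chrX:103321148-103321397, plus strand: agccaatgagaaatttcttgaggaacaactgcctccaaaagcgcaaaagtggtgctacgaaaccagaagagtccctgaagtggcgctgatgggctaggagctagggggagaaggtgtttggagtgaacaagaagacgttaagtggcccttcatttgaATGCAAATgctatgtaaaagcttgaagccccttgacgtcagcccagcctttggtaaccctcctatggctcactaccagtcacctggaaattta
Each stretch held the octamer once, on the gene's strand, with its first base 126 bases before the end of the Cdx2 stretch and 93 bases before the end of the Cdx4 stretch. The octamer was chosen after these letters had been read. It was found on either strand in 1.53% of 32851 RefSeq promoters over the same 229 bases and in 1.60% over the same 250 bases. The 229 bases likewise stopped short of the RefSeq starts of those promoters. No copy of the TCF/LEF words CTTTGA or CTTTGT, the CDX words TTTATG or TTTATT, or the retinoid receptor half-sites AGGTCA or GGGTCA was found on either strand. The 3 pairs of words were held by 26.1%, 24.4% and 22.2% of promoters over 229 bases, and by 27.6%, 25.5% and 23.8% over 250 bases. These matches describe the letters of the windows and were not tested against expression.

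Each member was represented by 1 transcript of 3 exons, and none overlapped another annotated gene. In mm10 (GRCm38) coordinates, Cdx1 (ENSMUSG00000024619.8) lay on the minus strand of chromosome 18 from 61018862 to 61036199, with a transcript of 1750 bp and 268 codons. Cdx2 (ENSMUSG00000029646.3) lay on the minus strand of chromosome 5 from 147300805 to 147307270, with a transcript of 2261 bp and 311 codons. Cdx4 (ENSMUSG00000031326.2) lay on the plus strand of chromosome X from 103321398 to 103330592, with a transcript of 1963 bp and 282 codons. Exon 2 measured 146 bp in all 3 genes, whereas exon 1 and exon 3 differed in length (524, 826 and 658 bp, and 1080, 1289 and 1159 bp, for Cdx1, Cdx2 and Cdx4).

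Values are TPM, the relative abundance of transcripts corrected for their length, so that levels can be compared between genes. Differences are on the scale of log2(TPM + 1) and were tested with limma, which pools the spread of all 15 libraries. Adjusted p (Benjamini-Hochberg over all 14290 genes) below 0.05 is called a rise or a fall. Depth, as exon coverage per unit of expression, differed by up to 2.19 times between libraries, and 13688 to 14494 genes per library reached 1 TPM. The comparisons share groups, 4 of them the 96h libraries, and are therefore not independent of each other. In bulk RNA, fewer expressing cells and less RNA per cell cannot be told apart. The tables of TLSMG libraries stood slightly apart in scale: the median log2 difference over all genes tested was 0.14 in TLSMG against 96h, 0.13 against Gastruloid, and -0.16 and -0.18 for TLSMGC and TLSMGCL against TLSMG. Median-of-ratios scaling brought these 4 medians to between -0.02 and 0.01, and turned 4792 higher and 1785 lower genes in TLSMG against 96h into 3148 and 3343. The same scaling turned 4497 higher and 1125 lower genes in TLSMG against Gastruloid into 2753 and 2584, 1490 and 4352 in TLSMGC against TLSMG into 2741 and 2572, and 1330 and 5086 in TLSMGCL against TLSMG into 2837 and 2751.

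Cdx1 was the most abundant Cdx transcript at 96 h, nearly vanished by 120 h in structures without added CHIR, and stayed high where CHIR was added. In 96h replicates 1 to 3, Cdx1 measured 231, 337 and 401 TPM, which placed it between the 95.5 and 97.6 percentiles of the genes tested. In Gastruloid it measured 6.20, 5.48 and 7.64 TPM. In TLSMG it measured 2.77, 3.32 and 3.88 TPM, between the 13.3 and 17.8 percentiles. These 2 groups lay far below every 96h library and did not overlap each other. In TLSMGC it measured 181, 114 and 160 TPM. In TLSMGCL it measured 145, 148 and 136 TPM. The 6 libraries with CHIR overlapped one another, lay below all 96h libraries and lay above all libraries of Gastruloid and TLSMG. The lowest Cdx1 values still rested on a mean coverage of 5.70 to 11.9 reads per base in TLSMG, against 479 to 781 in 96h.

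**Figure D1:**
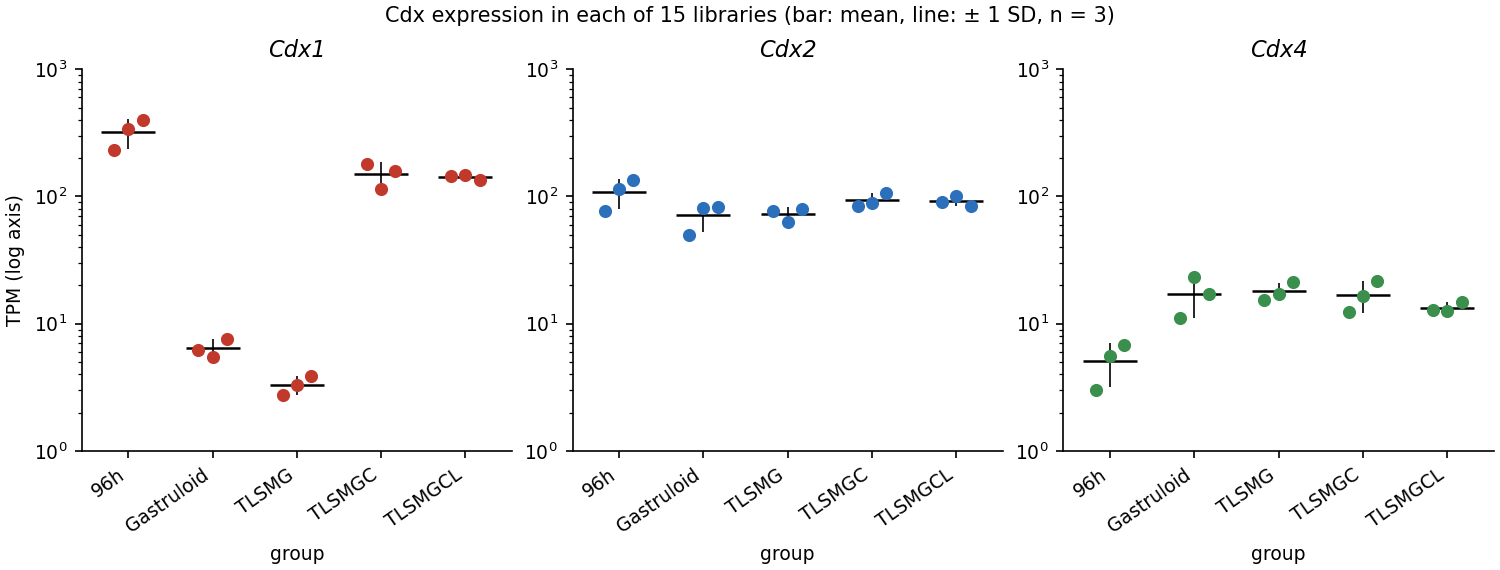
TPM of Cdx1, Cdx2 and Cdx4 on a log axis in each library (dots), by group, with the group mean (bar) and 1 SD on either side (line, n = 3). Cdx1 spans 2.77 to 401 TPM, Cdx2 stays between 50.0 and 135 TPM in every library, and Cdx4 is lowest in the 96h libraries.

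Cdx2 was the steadiest member. In 96h it measured 77.3, 115 and 135 TPM. In Gastruloid it measured 50.0, 80.5 and 82.1 TPM, and in TLSMG 77.6, 62.8 and 79.2 TPM. In TLSMGC it measured 83.7, 89.5 and 107 TPM, and in TLSMGCL 89.8, 101 and 84.8 TPM. The 96h range overlapped that of each 120 h group, and the highest and lowest group means differed 1.54-fold. Cdx2 stayed between the 77.5 and 91.4 percentiles of the genes tested in all 15 libraries.

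Cdx4 was the scarcest member at 96 h and was higher in every 120 h group. In 96h it measured 3.00, 5.55 and 6.76 TPM. Gastruloid libraries held 11.1, 23.2 and 17.3 TPM, those of TLSMG 15.5, 17.2 and 21.3 TPM, those of TLSMGC 12.4, 16.4 and 21.8 TPM, and those of TLSMGCL 12.8, 12.5 and 14.9 TPM. Every 120 h library lay above every 96h library, and the 120 h groups overlapped one another, except that all 3 TLSMGCL libraries lay below all 3 TLSMG libraries. Cdx4 coverage ran from 6.24 to 65.1 reads per base.

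Within 96h, the 3 members had the same order among the replicates. Replicate 1 was lowest and replicate 3 highest for each gene, and the highest replicate exceeded the lowest 1.74-fold for Cdx1, 1.75-fold for Cdx2 and 2.25-fold for Cdx4. The summed TPM of 9 neuromesodermal and tailbud factors (among them T, Tbx6 and Msgn1) had the same order, with 709, 981 and 1109 in replicates 1 to 3, as did that of 15 Hox genes of paralogue groups 5 to 9, with 134, 167 and 202. Of 15 gene lists read in these libraries, 8 had this order and 4 the reverse, among them the somite markers with 2465, 2054 and 1880 and the trophoblast markers with 26.5, 16.2 and 12.7. The part of this spread in the Cdx differences was not tested beyond leaving each library out.

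From 96 h to 120 h without added CHIR, Cdx1 fell, Cdx4 rose, and Cdx2 was slightly lower. Cdx1 went from 323 ± 86.1 TPM (mean ± SD, n = 3 in this and all following groups) to 6.44 ± 1.10 TPM in Gastruloid, a 50.2-fold lower mean. Its log2 difference was -5.42 (SE 0.19, limma adjusted p = 1.88e-10). In TLSMG it was 3.32 ± 0.555 TPM, 97.2-fold lower than at 96 h, with a log2 difference of -6.20 (SE 0.19, adjusted p = 7.25e-11). This was the largest fall of all 14290 genes in that comparison. Cdx4 went from 5.11 ± 1.92 TPM to 17.2 ± 6.05 TPM in Gastruloid, a log2 difference of 1.57 (SE 0.27, adjusted p = 4.37e-04), and to 18.0 ± 2.99 TPM in TLSMG, a log2 difference of 1.68 (SE 0.27, adjusted p = 2.26e-04). All 3 members were called in both comparisons, where 41.2% and 46.0% of all genes tested were called.

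The calls on Cdx2 were marginal. Cdx2 went from 109 ± 29.3 TPM to 70.9 ± 18.1 TPM in Gastruloid (log2 difference -0.61, SE 0.21, adjusted p = 0.0288) and to 73.2 ± 9.04 TPM in TLSMG (-0.54, SE 0.21, adjusted p = 0.0453). In both comparisons the ranges overlapped, and the exact two-sided permutation test over the 6 libraries gave p = 0.3, where the smallest p possible is 0.1. Across all 5 groups, limma's F test gave adjusted p = 0.0669 for Cdx2, against 4.93e-11 for Cdx1 and 4.84e-04 for Cdx4. Without Gastruloid replicate 1 the first difference was -0.38 (adjusted p = 0.138), and without 96h replicate 3 the second was -0.37 (adjusted p = 0.188).

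In the structures given CHIR, the fall of Cdx1 was smaller than without it, and Cdx4 was again higher than at 96 h. Cdx1 was 152 ± 33.8 TPM in TLSMGC, 2.13-fold below 96h, with a log2 difference of -1.08 (SE 0.19, adjusted p = 6.33e-04). In TLSMGCL it was 143 ± 6.24 TPM, 2.26-fold below 96h, with a log2 difference of -1.14 (adjusted p = 4.31e-04). Cdx4 was 16.9 ± 4.70 TPM in TLSMGC and 13.4 ± 1.32 TPM in TLSMGCL, with log2 differences of 1.57 (adjusted p = 4.52e-04) and 1.29 (adjusted p = 0.00204). Cdx2, at 93.5 ± 12.4 and 91.7 ± 8.03 TPM, was not called (log2 differences -0.19 and -0.21, 95% intervals -0.63 to 0.25 and -0.66 to 0.23). In all, 2 of 3 members were called in each comparison, beside 40.7% and 39.5% of all genes tested.

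**Figure D2:**
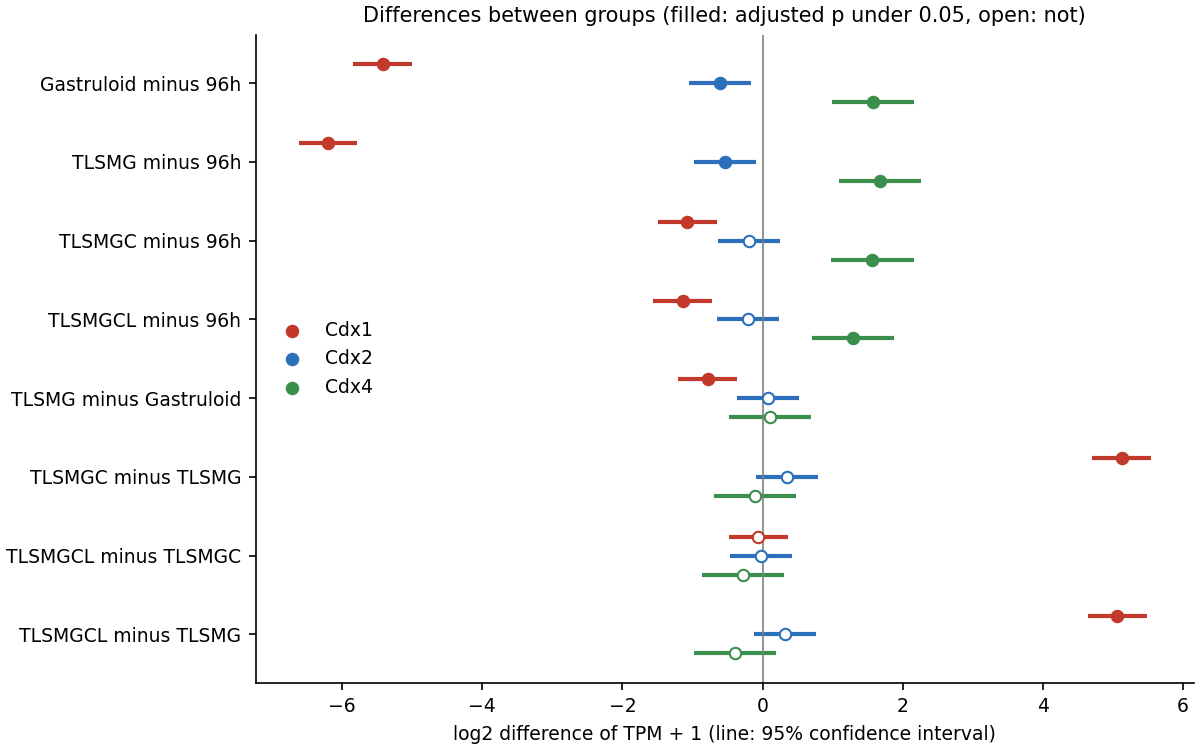
Log2 differences of TPM + 1 for Cdx1, Cdx2 and Cdx4 in the 8 comparisons, with 95% confidence intervals from limma; filled points have an adjusted p below 0.05. Cdx1 moves by -6.20 to 5.12, Cdx4 is called only in the 4 comparisons with 96h, and Cdx2 runs from -0.61 to 0.35.

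TLSMG, grown in Matrigel, was next set against Gastruloid. Cdx1, already low, was 1.94-fold lower in TLSMG (log2 difference -0.78, SE 0.19, adjusted p = 0.00678), and the 2 groups did not overlap. Relative to the median of 0.13 over all genes, the difference was in the opposite direction. With a pseudocount of 5 in place of 1, the call on Cdx1 was lost (-0.46, adjusted p = 0.0551). Cdx2 and Cdx4 were not called, with log2 differences of 0.07 (95% interval -0.37 to 0.52) and 0.11 (-0.48 to 0.69), whose sign turned under median-of-ratios scaling. Of all genes tested, 39.3% were called.

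With CHIR added to Matrigel, Cdx1 was the only member that rose. In TLSMGC against TLSMG, Cdx1 rose 45.6-fold in mean TPM (log2 difference 5.12, SE 0.19, adjusted p = 6.18e-10), the second largest rise among the genes tested. From TLSMG to TLSMGCL it rose 42.9-fold (5.06, SE 0.19, adjusted p = 7.81e-10). Cdx2 was higher in every CHIR library than in every TLSMG library but passed the test in neither comparison (0.35, adjusted p = 0.191, and 0.33, adjusted p = 0.214). Cdx4 was not called either (-0.11, 95% interval -0.70 to 0.47, and -0.39, -0.98 to 0.19). In all, 1 of 3 members was called in each, beside 40.9% and 44.9% of all genes tested.

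Adding LDN to CHIR left no called difference in any Cdx gene. The log2 difference of TLSMGCL against TLSMGC was -0.06 for Cdx1 (95% interval -0.48 to 0.36, adjusted p = 0.932), -0.02 for Cdx2 (-0.47 to 0.42, adjusted p = 0.979) and -0.28 for Cdx4 (-0.87 to 0.30, adjusted p = 0.729). The intervals leave room for changes of up to those sizes. Of all genes tested, 1.18% were called in this comparison.

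Ordered by mean TPM, Cdx1 ran 96h, TLSMGC, TLSMGCL, Gastruloid, TLSMG, and each neighbouring pair was separated except TLSMGC and TLSMGCL, which did not differ beyond their spread. TLSMGCL and Gastruloid did not overlap but were not compared with a test. Cdx2 ran 96h, TLSMGC, TLSMGCL, TLSMG, Gastruloid, with no neighbouring pair called. Cdx4 ran TLSMG, Gastruloid, TLSMGC, TLSMGCL, 96h, with TLSMGCL against 96h called, TLSMG against Gastruloid and TLSMGC against TLSMGCL not called, and Gastruloid against TLSMGC not tested.

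The make-up of the Cdx pool turned over between groups. Since TPM is per length, the 3 members were summed, giving 437 ± 117 TPM in 96h, 94.5 ± 23.6 TPM in Gastruloid, 94.5 ± 10.6 TPM in TLSMG, 262 ± 36.5 TPM in TLSMGC and 248 ± 12.7 TPM in TLSMGCL. Cdx1 supplied 73.9 ± 0.256% of the sum in 96h, Cdx2 24.9 ± 0.143% and Cdx4 1.14 ± 0.153%, so the proportions were nearly fixed although the levels varied between replicates. In Gastruloid the shares were 7.12 ± 2.09% for Cdx1, 74.9 ± 1.58% for Cdx2 and 17.9 ± 2.85% for Cdx4. In TLSMG they were 3.53 ± 0.572%, 77.4 ± 3.10% and 19.1 ± 2.54%. With CHIR, Cdx1 was again the main member, at 57.5 ± 6.95% in TLSMGC and 57.6 ± 0.919% in TLSMGCL, with Cdx2 at 36.0 ± 5.29% and 37.0 ± 1.38% and Cdx4 at 6.49 ± 1.74% and 5.43 ± 0.804%.

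**Figure D3:**
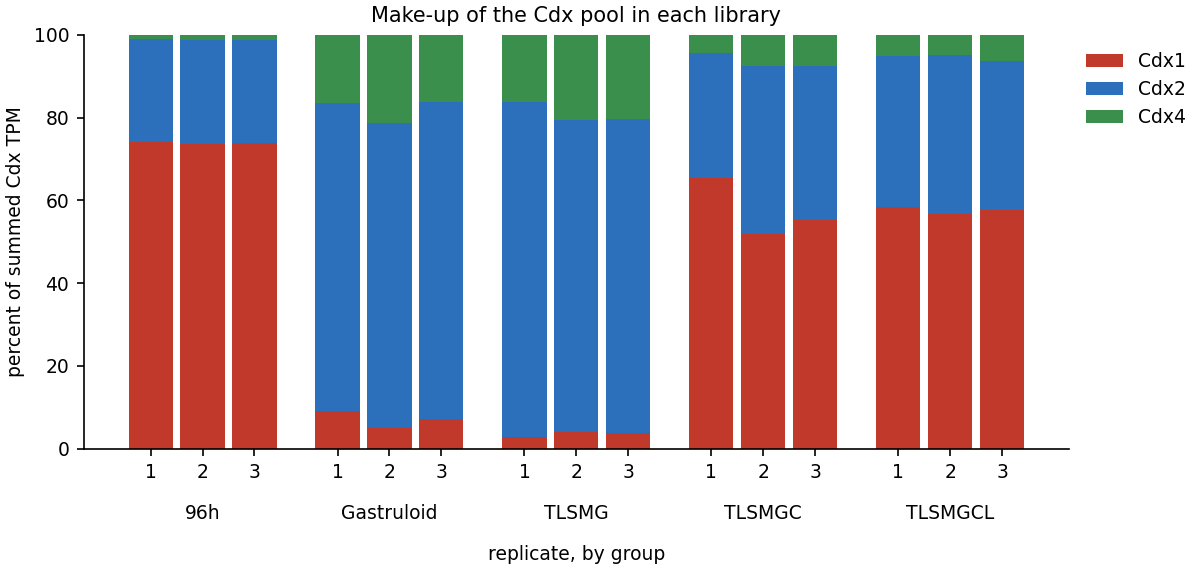
Share of each member in the summed Cdx TPM of every library, as stacked bars from 0 to 100%. Cdx1 holds 73.9% on average in 96h and under 10% in Gastruloid and TLSMG, where Cdx2 holds 74.9% and 77.4%.

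Whether members moved apart was tested on the ratio of their TPM + 1 values within a library. Apart from the added 1, this ratio does not depend on how the library is scaled. The added 1 weighs most where a member is low, as for Cdx1 in TLSMG and Cdx4 in 96h. The log2 ratio of Cdx1 to Cdx2 was 1.56 ± 0.0114 in 96h, -3.25 ± 0.414 in Gastruloid, -4.10 ± 0.255 in TLSMG, 0.67 ± 0.386 in TLSMGC and 0.63 ± 0.0725 in TLSMGCL. That of Cdx2 to Cdx4 was 4.19 ± 0.0873 in 96h and between 1.97 and 2.69 on average in the 120 h groups. Among 24 tests (3 ratios in 8 comparisons), the smallest exact permutation p that 3 against 3 libraries allow is 0.1, or 0.126 after Benjamini-Hochberg adjustment, so none could pass. All ratios differed without overlap between 96h and each 120 h group, and no ratio was separated between TLSMGCL and TLSMGC.

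Upstream signals were described by the genes of each pathway, from lists chosen with earlier results on these data known. Of all genes tested, 20.8% rose and 20.5% fell in Gastruloid against 96h, and 33.5% and 12.5% in TLSMG. These shares were 20.6% and 20.1% in TLSMGC, and 17.4% and 22.1% in TLSMGCL. Against TLSMG they were 10.4% and 30.5% in TLSMGC, and 9.31% and 35.6% in TLSMGCL. Of 6 WNT ligands of the posterior embryo, 5 were tested, and 4 fell and none rose in Gastruloid against 96h, while 3 fell and none rose in TLSMG (medians -1.34 and -1.36, against 0.00 and 0.14 over all genes). Wnt3a, the tailbud ligand, went from 34.1 ± 7.87 TPM to 1.17 ± 0.132 TPM in Gastruloid (log2 difference -3.99) and 2.23 ± 0.218 TPM in TLSMG (-3.42). Wnt8a was 37.8 ± 9.87 TPM at 96 h and 0.874 ± 0.558 TPM in TLSMGC, a log2 difference of -4.38. Wnt11, a ligand of mesoderm movements, rose from 0.472 ± 0.376 TPM in TLSMG to 12.9 ± 1.50 TPM in TLSMGC (3.26, adjusted p = 3.60e-08), and Wnt3a and Wnt5b also rose there, while Wnt5a and Wnt8a fell.

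Beta-catenin and the TCF/LEF factors carry the WNT signal to DNA. Of their 5 genes, 2 fell and 3 were not called in both groups without CHIR, against 96h. Falls made up 20.5% of all genes tested in Gastruloid and 12.5% in TLSMG. Lef1, an activating member, went from 329 ± 31.7 TPM at 96 h to 56.9 ± 10.5 TPM in Gastruloid and 68.4 ± 6.19 TPM in TLSMG (-2.52 and -2.25). With CHIR, 2 of 5 rose and 2 fell in TLSMGC against TLSMG, beside 10.4% and 30.5% of all genes tested. Tcf7 rose from 57.5 ± 2.27 to 165 ± 6.12 TPM (1.50, adjusted p = 1.27e-08). Tcf7l1, known mainly as a repressor, was 73.6 ± 2.61 TPM in TLSMG and 28.3 ± 3.41 TPM in TLSMGCL (-1.35, adjusted p = 1.11e-06).

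Most feedback and target genes of WNT signalling fell, like Cdx1, in the groups without CHIR against 96h and rose from TLSMG to TLSMGC. In TLSMG against Gastruloid, where Cdx1 fell, 3 of 8 rose and none fell, beside 31.5% and 7.87% of all genes tested. Sp5 rose by 0.82 there (adjusted p = 0.00270). Under median-of-ratios scaling 1 of 8 rose. Of 8 tested, 6 fell in Gastruloid and 5 in TLSMG against 96h, beside 20.5% and 12.5% of all genes tested. From TLSMG to TLSMGC 7 rose (median 1.76, against -0.16 over all genes), beside 10.4% of all genes. The remaining gene, Lgr5, was not called. Sp5, a transcription factor induced by WNT, was 98.3 ± 21.9 TPM at 96 h, 3.72 ± 1.06 in Gastruloid, 7.20 ± 0.849 in TLSMG, 177 ± 18.3 in TLSMGC and 138 ± 2.73 in TLSMGCL. Its log2 difference in TLSMGC against TLSMG was 4.44 (adjusted p = 8.75e-10). The summed TPM of the list stood above its 96h level with CHIR. There 6 of 8 genes rose in TLSMGC and 4 of 8 in TLSMGCL against 96h, and none fell. Rises made up 20.6% and 17.4% of all genes tested in these comparisons. Notum, a secreted enzyme that inactivates WNT, was 67.0 ± 5.98 TPM in TLSMGC against 9.26 ± 2.81 TPM at 96 h (2.76, adjusted p = 6.67e-08). The summed TPM of the list was 212 to 262 in 96h, 54.0 to 77.6 in the 6 libraries without CHIR and 413 to 554 in the 6 libraries with it.

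FGF ligands and targets of ERK, the kinase downstream of FGF, fell with time in all conditions. Of 10 genes tested, 9 fell in each of the 4 comparisons with 96h and none rose (medians -1.10 to -1.27). Between 12.5% and 22.1% of all genes tested fell in these comparisons. Fgf4 went from 26.1 ± 5.91 TPM at 96 h to 1.88 ± 0.585 TPM in TLSMG (-3.23) and 1.67 ± 0.331 TPM in TLSMGC (-3.32). Fgf3 went from 32.4 ± 4.07 to 3.50 ± 0.634 TPM in Gastruloid (-2.89). In TLSMGC against TLSMG 2 rose and 4 fell, beside 10.4% and 30.5% of all genes tested. Fgf18 fell from 19.3 ± 4.16 to 3.79 ± 0.358 TPM (-2.07).

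Retinoic acid genes moved in both directions. Of 8, 2 rose and 3 fell in Gastruloid against 96h, beside 20.8% and 20.5% of all genes tested. In TLSMG 3 rose and 2 fell, beside 33.5% and 12.5%. Counts this small do not set the list apart from all genes. Aldh1a2, the enzyme that makes retinoic acid in the mesoderm, was 1189 ± 146 TPM at 96 h, 40.9 ± 5.02 TPM in Gastruloid, 36.6 ± 3.55 TPM in TLSMG, 135 ± 20.7 TPM in TLSMGC and 237 ± 13.9 TPM in TLSMGCL. It rose from TLSMGC to TLSMGCL (0.82, adjusted p = 0.00556), where Cdx1 was not called. Cyp26a1, which degrades retinoic acid, was 18.9 ± 0.977 TPM at 96 h and 1.73 ± 0.197 TPM in TLSMGCL (-2.87). Rarb, a receptor that retinoic acid induces, fell from 11.9 ± 1.35 TPM in TLSMG to 2.47 ± 0.523 TPM in TLSMGC (-1.90, adjusted p = 1.05e-05). Of the 8 genes, 2 rose and 4 fell there, beside 10.4% and 30.5% of all genes tested. Under median-of-ratios scaling 2 fell.

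The neuromesodermal and tailbud factors, which share the posterior domain of the Cdx genes in the embryo, fell in Gastruloid and TLSMG against 96h in 8 of 9 cases, and the ninth, Sox2, rose. Falls made up 20.5% and 12.5% of all genes tested in these comparisons, and rises 20.8% and 33.5%. From TLSMG to TLSMGC 6 of the 9 factors rose and 1, again Sox2, fell, beside 10.4% and 30.5% of all genes tested. Msgn1, a factor of the presomitic mesoderm, went from 136 ± 36.5 TPM at 96 h to 0.165 ± 0.164 TPM in Gastruloid and 1.19 ± 0.575 TPM in TLSMG, then stood at 36.6 ± 8.15 TPM in TLSMGC. It fell from TLSMGC to 15.4 ± 1.45 TPM in TLSMGCL (-1.18, adjusted p = 0.0194). Tbx6, which specifies paraxial mesoderm, was 6.02 ± 2.00 TPM in TLSMG and 57.1 ± 4.20 TPM in TLSMGCL (3.09, adjusted p = 8.38e-07). The part of cell composition in these values was not tested.

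Hox genes are the best known targets of CDX proteins. Of 39 Hox genes, 27 were tested, and the 12 of paralogue groups 10 to 13 were not, their summed TPM being at most 4.12 in any library. Of 15 genes in groups 5 to 9, which pattern the trunk, 10 rose and 2 fell in Gastruloid against 96h (median 1.81, against 0.00 over all genes). In TLSMG against 96h, 13 rose and 1 (Hoxb5) fell (median 1.78, against 0.14). Rises made up 20.8% and 33.5% of all genes tested in these comparisons, and falls 20.5% and 12.5%. Hoxc9 went from 0.767 ± 0.134 TPM at 96 h to 30.6 ± 3.97 TPM in Gastruloid (log2 difference 4.15) and 27.2 ± 3.96 TPM in TLSMG (3.99), in the groups where Cdx1 was lowest. With CHIR, 11 rose and 3 fell in TLSMGC against 96h, beside 20.6% and 20.1% of all genes tested. There Hoxa9 was 6.78 ± 2.63 TPM against 0.0453 ± 0.0457 TPM at 96 h (2.83).

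Between the groups with and without CHIR, trunk Hox genes and Cdx1 were called in opposite directions. From TLSMG to TLSMGC 13 of the 15 fell and 1 rose (median -0.95, against -0.16 over all genes), and from TLSMG to TLSMGCL 14 fell and none rose (median -1.16, against -0.18). Falls made up 30.5% and 35.6% of all genes tested in these comparisons, and rises 10.4% and 9.31%. Over all alternatives, 11 to 14 of the 15 fell in TLSMGC against TLSMG. Hoxb8 fell from 43.9 ± 4.32 TPM in TLSMG to 11.9 ± 3.57 TPM in TLSMGC (-1.83, adjusted p = 4.58e-06). Hoxc8 fell from 66.2 ± 7.18 TPM to 20.4 ± 1.28 TPM in TLSMGCL (-1.64, adjusted p = 2.02e-05). The gene that rose in TLSMGC was Hoxd9, and it fell from 18.5 ± 2.65 TPM there to 5.85 ± 1.34 TPM in TLSMGCL (-1.52, adjusted p = 0.00706), the other gene of these groups called in that comparison being Hoxd8 (-0.67, adjusted p = 0.0153). The summed TPM of the 15 genes was 134 to 202 in 96h, 603 to 737 in the 6 libraries without CHIR and 229 to 308 in the 6 with it, where the summed TPM of 10 neural tube markers was 68.0 to 89.9, 206 to 524 and 58.9 to 86.1. The part of neural cells in the Hox values was not tested.

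**Figure D4:**
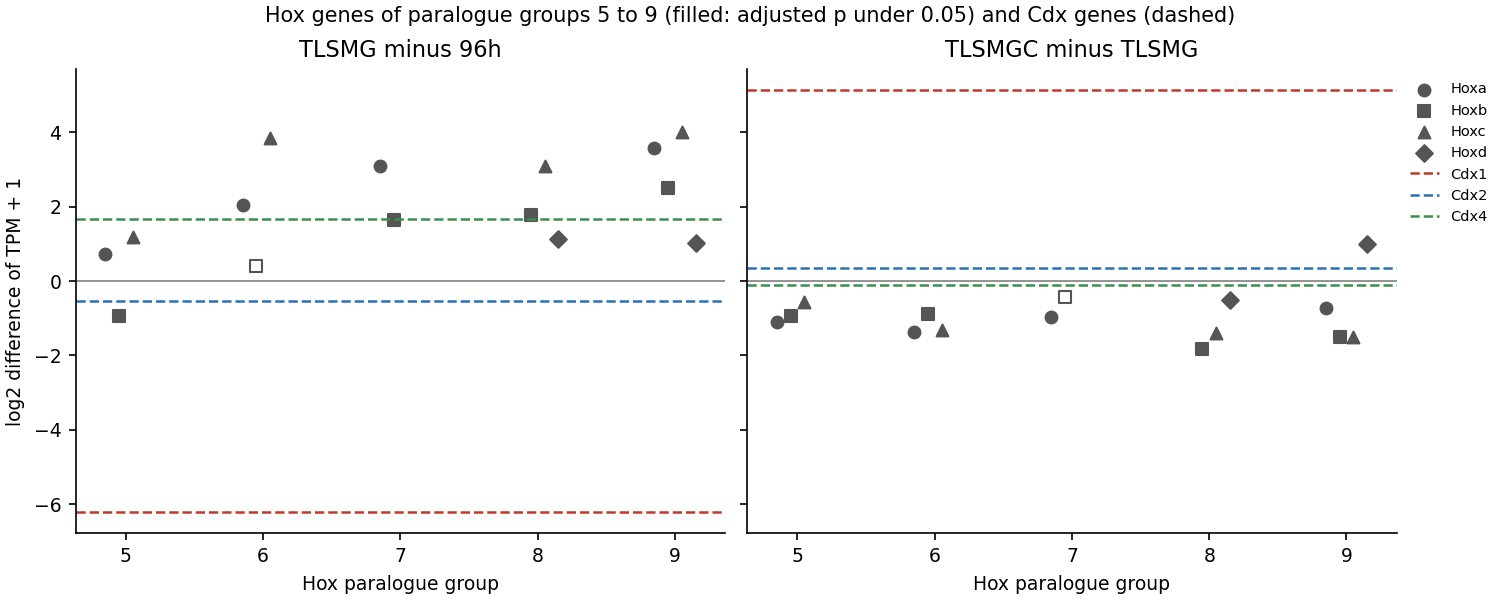
Log2 difference of each Hox gene of paralogue groups 5 to 9, by group (markers by cluster, filled where adjusted p is below 0.05) in TLSMG against 96h and TLSMGC against TLSMG, with the 3 Cdx differences as dashed lines. Most Hox points lie above 0 on the left and below 0 on the right, while Cdx1 lies at -6.20 and 5.12.

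The anterior Hox genes, paralogue groups 1 to 4, were mixed: of 12 tested, 6 fell and 1 rose in Gastruloid against 96h, 5 fell and 3 rose in TLSMG, and 8 fell and 1 rose in TLSMGC. Of all genes tested, 20.5%, 12.5% and 20.1% fell in these comparisons, and 20.8%, 33.5% and 20.6% rose. In TLSMG against 96h, all 3 genes of group 1 fell, while 2 of 4 of group 4 rose and none fell. Hoxb1, an early gene of the posterior embryo and hindbrain, was 226 ± 2.26 TPM at 96 h, 37.8 ± 3.61 TPM in TLSMG and 56.7 ± 7.76 TPM in TLSMGC (-2.56 and -1.99 against 96h). Hoxd1 went from 45.8 ± 8.12 to 7.06 ± 1.40 TPM in Gastruloid (-2.54). Between TLSMG and TLSMGC 2 rose and 7 fell, beside 10.4% and 30.5% of all genes tested. Under median-of-ratios scaling 2 fell. Hoxd4 shares its symbol between 2 overlapping gene IDs and is uncertain.

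Of 6 genes outside the Hox clusters that are reported as CDX-regulated (T, Wnt3a, Cyp26a1, Dll1 and Pax3 among them), 4 fell and 2 rose in TLSMG against 96h. Of all genes tested, 12.5% fell and 33.5% rose there. T, Wnt3a and Cyp26a1 were also counted above, among the tailbud factors, WNT ligands and retinoic acid genes, so these lists are not separate. Dll1, a Notch ligand of the presomitic mesoderm, went from 484 ± 24.2 TPM to 44.1 ± 2.4 TPM (-3.43, adjusted p = 1.48e-10). Against TLSMG, 3 rose and 2 fell in TLSMGC, beside 10.4% and 30.5% of all genes tested. Pax3 was 41.1 ± 11.7 TPM in TLSMG against 24.8 ± 5.86 TPM in Gastruloid (0.69, adjusted p = 0.0235).

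Over the 15 libraries, likeness to a member was measured as the root-mean-square difference between log2(TPM + 1) values, each gene centred on its own mean. Nearest to Cdx1 were Msgn1 (0.83), Tbx6 (0.84), Sp5 (0.91), Aldh1a2 (1.21) and Mogat2, an enzyme of triglyceride synthesis (1.25), against a median of 2.59 over all genes tested. Mogat2 measured 76.1 ± 2.27 TPM in 96h, 6.31 ± 0.329 in Gastruloid, 10.7 ± 0.493 in TLSMG, 72.5 ± 6.74 in TLSMGC and 52.0 ± 5.38 in TLSMGCL. All 5 were also the nearest when the 5 group means were used, and 2 of 5 with a pseudocount of 0.1. Among the members, Cdx2 was 2.32 and Cdx4 2.99 from Cdx1.

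Among the 5 genes nearest to Cdx2 were Oat (0.17), Borcs6 (0.19), Cenpw (0.20) and 2900009J06Rik (0.20), small distances because Cdx2 itself varied with an SD of 0.33 log2 units, and the median gene was 0.43 away. None of the 5 was kept with group means. Nearest to Cdx4 were Gm8121 (0.25), Tnfaip6 (0.30), Gm12013 (0.30), Fzd9 (0.31) and Glrb (0.32), with 2 of 5 kept under either alternative. Gm8121 and Gm12013 are annotated as processed pseudogenes and can share reads with their parent genes, so their values are uncertain. Fzd9, a WNT receptor, measured 1.34 ± 0.166 TPM in 96h, 7.51 ± 0.607 in Gastruloid, 7.83 ± 1.36 in TLSMG, 5.23 ± 1.25 in TLSMGC and 4.76 ± 0.484 in TLSMGCL.

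**Figure D5:**
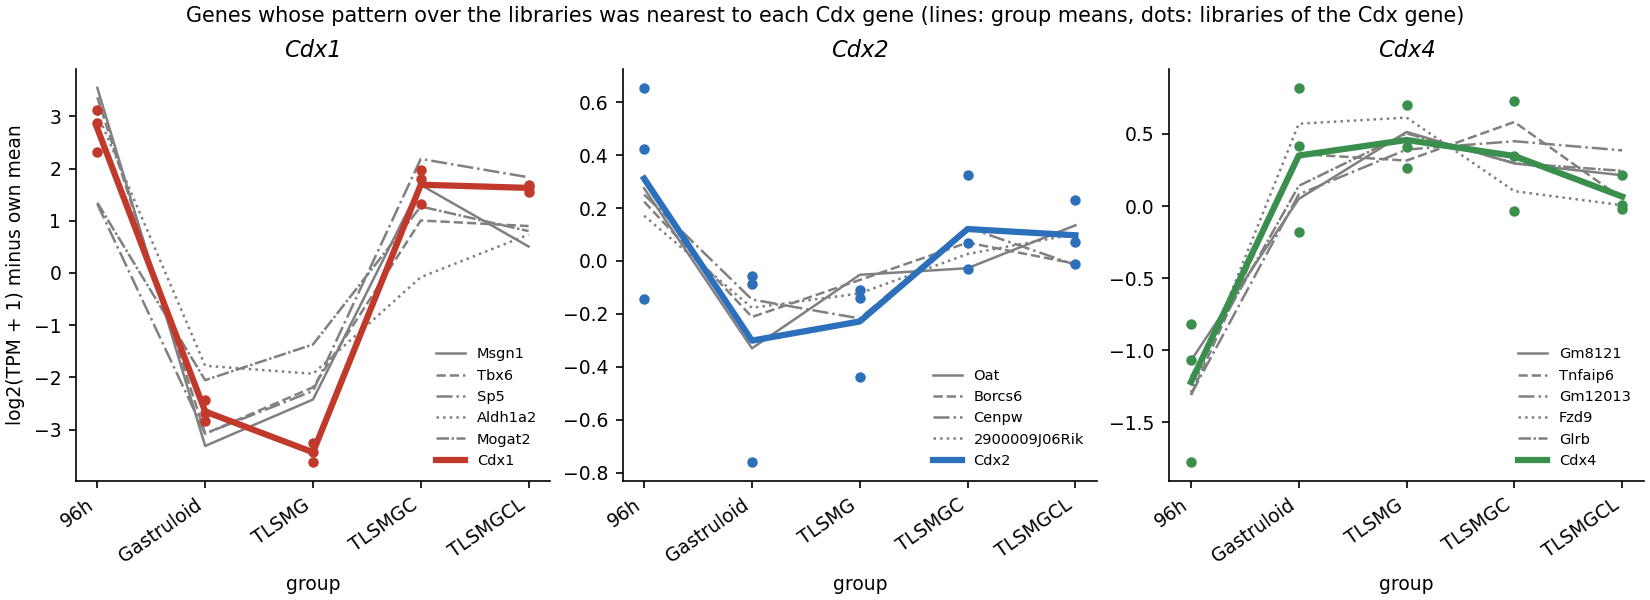
Group means of log2(TPM + 1), each gene centred on its own mean over the 15 libraries, for each Cdx gene (colour, with dots for its libraries) and genes among the 5 nearest (grey lines, which only join group means). The vertical scales differ: Cdx1 varies with an SD of 2.54 log2 units over the libraries, Cdx4 with 0.70 and Cdx2 with 0.33.

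Genes near the members were read as well. Of 8, 8 and 11 annotated neighbours within 100 kb of Cdx1, Cdx2 and Cdx4, 3, 1 and 1 were expressed enough to be tested. Of all 54446 gene IDs, 14290 were. Pdgfrb, a growth factor receptor gene 8951 bp from Cdx1, measured 8.98 ± 2.74 TPM in 96h, 31.1 ± 3.23 in Gastruloid, 38.6 ± 1.06 in TLSMG, 15.9 ± 3.23 in TLSMGC and 17.1 ± 1.77 in TLSMGCL. It rose in TLSMG against 96h (2.02, adjusted p = 4.86e-07) and fell from TLSMG to TLSMGC (-1.25, adjusted p = 6.38e-05), opposite to Cdx1 in both. Camk2a, 30710 bp from Cdx1, also rose in TLSMG against 96h (1.26, adjusted p = 1.81e-04). Hmgxb3 was not called in TLSMG against 96h (adjusted p = 0.976), and was lower in Gastruloid than in 96h (-0.42, adjusted p = 0.00154) and TLSMG (adjusted p = 0.00226). Urad, 7714 bp from Cdx2, was not called in TLSMG against 96h (0.51, adjusted p = 0.135) and rose in TLSMGC against 96h (1.04, adjusted p = 0.00649). Chic1, 25884 bp from Cdx4, rose in TLSMG against 96h (0.66, adjusted p = 0.00228), as Cdx4 did, and was not called in Gastruloid against 96h (0.07, adjusted p = 0.723). Pdx1, the pancreatic homeobox gene next to Cdx2, was at most 0.222 TPM.

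Because Cdx2 also marks trophectoderm and gut endoderm, markers of those cells were read beside it. Summed over 10 trophoblast markers, TPM was 12.7 to 26.5 in 96h, and Gastruloid (15.1 to 18.5) and TLSMG (21.8 to 26.5) lay above TLSMGC (5.54 to 8.96) and TLSMGCL (4.37 to 4.89). Of these, 6 were tested, and 5 fell from TLSMG to TLSMGC, beside 30.5% of all genes tested. With FPKM 2 fell, and with a filter at a mean of 5 TPM none did. Elf5 was listed at 0 in all TLSMGC libraries, and Hand1 in all Gastruloid and TLSMGCL libraries. In the other 120 h groups Elf5 averaged at most 0.0741 TPM and Hand1 at most 0.771 TPM, so both were near the floor at 120 h. Summed over 9 gut endoderm markers, TPM was 81.0 to 100.2 in 96h, 51.8 to 83.0 in the groups without CHIR and 26.1 to 58.4 in those with it, and 4 of 7 tested fell from TLSMG to TLSMGC, or 2 with the filter at 5 TPM. Hnf4a was listed at 0 in all 6 libraries with CHIR, but averaged at most 0.0886 TPM in any other group and was not tested. The part of these cell types in the Cdx values was not tested.

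The labels describe structures from stem cells, and markers of the named tissues were read for them. The summed TPM of 9 pluripotency markers was 176 to 310 in 96h and 250 to 409 in Gastruloid. It was 120 to 157 in TLSMG and 40.0 to 89.7 in the groups with CHIR. In TLSMG against Gastruloid 5 of 9 fell, beside 7.87% of all genes tested. Pou5f1, a POU factor, was 116 ± 26.7 TPM at 96 h, 57.8 ± 11.3 in Gastruloid, 26.5 ± 2.71 in TLSMG and 10.1 ± 4.93 in TLSMGC. In TLSMGC against 96h, 9 of 9 of these markers fell (6 to 9 over the alternatives), beside 20.1% of all genes tested. Summed over 10 somite markers, Aldh1a2 among them, TPM was 1880 to 2465 in 96h and 759 to 1212 at 120 h, but Aldh1a2 alone averaged 1189 TPM in 96h. By count, 6 of 9 somite markers tested rose and 2 fell in Gastruloid as in TLSMG against 96h (medians 0.79 and 0.62). Rises made up 20.8% and 33.5% of all genes tested in these comparisons, and falls 20.5% and 12.5%. Over the alternatives, 4 to 7 of the markers rose in Gastruloid and 4 to 6 in TLSMG. Pax1, a marker of the ventral somite, was 61.7 ± 6.92 TPM in Gastruloid, 17.0 ± 3.81 in TLSMG and 0.266 ± 0.0744 in TLSMGC. From TLSMG to TLSMGC 2 of the 9 somite markers tested rose and 6 fell, beside 10.4% and 30.5% of all genes tested. Against 96h, 4 rose and 4 fell in TLSMGC, beside 20.6% and 20.1%, so the markers did not move together.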

How the data were processed

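RNA was sequenced in 15 bulk libraries (stranded, polyadenylated RNA, paired ends, per the labels' protocols). The submitters' processing notes name cutadapt 2.4, STAR 2.7.3a, StringTie 2.0 and mm10; the annotation release is not given in the sources used here, but the coordinates of all 3 Cdx genes equal GENCODE M21. The deposited TPM and FPKM values and the deposited coverage signal come from 1 StringTie abundance table per library, per the file headers. Rows of 1 gene ID were summed (7 to 13 repeated lines per library). Genes whose TPM averaged 1 or more in the 15 libraries together were fitted as log2(TPM + 1) with limma 3.58.1 (R 4.3.3), 5 groups in 1 model and a mean trend in the prior variance, two-sided. A pseudocount of 1 understates the change of low genes. Ratios were compared by exact permutation. Code was tested on simulated data. The members and gene lists were chosen with earlier results of these data known. Named genes are the members, per list and comparison at most the called gene with the largest difference at 5 TPM or more, the 5 nearest genes and neighbours within 100 kb; Lgr5, Wnt5a, Wnt5b, Hoxb5, Hoxd8, Sox2, Elf5, Hand1 and Hnf4a were named after their values were seen. Alternatives were other pseudocounts, filters, FPKM, median-of-ratios scaling, the 2 groups alone, a replicate block, another prior and leaving out each library. Within groups, libraries correlated at 0.985 to 0.991 and none were identical. Some genes of the lists are not reported here by name. Read counts were not used here, so no counting interval is given, and single-cell and NanoString samples were not analysed here.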

Additional observations from a re-analysis of the deposited data

How the results depend on the processing

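Of 24 Cdx differences, 15 kept direction and side of the threshold under all 15 alternatives, among them every Cdx1 difference except TLSMG against Gastruloid and TLSMGCL against TLSMGC, and every Cdx4 difference from 96h. The Cdx2 fall in Gastruloid was not called without a filter (-0.61, adjusted p = 0.0664), with FPKM (-0.52), in the 2 groups alone (-0.61), or without 96h replicate 2 or 3 or Gastruloid replicate 1 (leaving out 1 library: -0.84 to -0.38). That in TLSMG was not called without a filter (-0.54, adjusted p = 0.0961), in the 2 groups alone (-0.54), with the other prior (-0.54), or without 96h replicate 2 or 3 or any 1 TLSMG library (-0.77 to -0.37). The cause was not tested. Cdx1 in TLSMG against Gastruloid was not called at a pseudocount of 5 (-0.46), which shrinks low values. Cdx2 in TLSMGCL against TLSMG was called in the 2 groups alone (0.33, adjusted p = 0.0492).

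Uncalled values turned sign: in TLSMG against Gastruloid, Cdx2 and Cdx4 with FPKM (-0.10 and -0.057) and median-of-ratios scaling (-0.10 and -0.055), and without 1 library (-0.16 to 0.19 and -0.16 to 0.34). In TLSMGC against TLSMG, Cdx4 did so with median-of-ratios scaling (0.054) and without 1 library (-0.30 to 0.080). In TLSMGCL against TLSMGC, Cdx2 did so with median-of-ratios scaling (0.016) and without 1 library (-0.10 to 0.079), and Cdx1 without 1 library (-0.25 to 0.077). The 169 genes called in TLSMGCL against TLSMGC were 42 in the 2 groups alone and 56 to 198 without 1 library.

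With a replicate block, no Cdx call changed (Cdx1 in TLSMG against 96h -6.20, adjusted p = 1.62e-09; Cdx2 -0.54, adjusted p = 0.0249). The labels give only matching replicate numbers. Deviations of same-numbered libraries from their group means correlated at -0.18 to 0.10. Differently numbered libraries were not read beside them, so whether the samples were paired cannot be told.

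Coverage was lowest for Cdx1 in TLSMG (at most 11.9 reads per base) and Cdx4 in 96h (at most 13.2).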
